A study of Mus musculus with 32 samples.

Results

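The BCL2 family, the proteins that decide whether mitochondria release the signals that start cell death, was followed here through 10 of its genes in cultured cartilage cells: Bmf, Bid, Pmaip1, Bcl2l11, Bbc3, Bcl2, Bcl2l1, Mcl1, Bax and Bak1. They were chosen by symbol, all 10 were found among the 41388 genes in each deposited table, and all 10 passed the filter on low counts that left 16136 genes for testing. RNA had been sequenced from primary chondrocytes of the femoral head of mice at postnatal day 21, grown for 4 days without passaging. LG/J mice, an inbred strain whose ear holes and damaged cartilage heal well, were set against SM/J mice, an inbred strain that heals poorly, to find the pathways that separate cartilage regeneration and degeneration. Each strain gave 8 male and 8 female libraries (LG/J males, LG/J females, SM/J males, SM/J females), 32 in all, and no group received a treatment or carried an engineered allele, as far as the labels say. The labels do not say whether a group's 8 libraries were 8 animals or 8 cultures, and the spread behind the p-values may therefore be technical in part or whole.

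The family works through 3 kinds of protein. BH3-only proteins (Bid, BIM from Bcl2l11, BMF, PUMA from Bbc3 and NOXA from Pmaip1) sense stress or damage and set off the pathway. Prosurvival proteins (BCL2, BCL-XL from Bcl2l1, and MCL1) hold them and the effectors in check, and the effectors BAX and BAK, once free, open the outer membrane of mitochondria so that cytochrome c escapes and caspases are activated. In cartilage, death of chondrocytes accompanies both growth plate turnover and osteoarthritis. Much of the family's control acts on the proteins, by binding, cleavage, phosphorylation and degradation, which RNA counts do not measure.

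What all 3 kinds share is the BH3 stretch, a short helix by which 1 member docks into another. Its reference coding sequence is printed for 9 members (that of Pmaip1 was not used here), because it is the feature that makes the genes below a family and because it shows how far they differ. Each run is 36 bases, and capitals mark the 18 bases that code for the core of the helix, a leucine, any 3 residues, a glycine or alanine and an aspartate. The sequences were read from the GENCODE M21 transcripts on GRCm38, which is the genome of another strain, C57BL/6J, and not of LG/J or SM/J.
Bmf: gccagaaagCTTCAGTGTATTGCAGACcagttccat
Bid: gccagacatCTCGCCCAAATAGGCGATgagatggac
Bcl2l11: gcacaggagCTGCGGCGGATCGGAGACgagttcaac
Bbc3: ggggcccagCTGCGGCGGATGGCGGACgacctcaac
Bcl2: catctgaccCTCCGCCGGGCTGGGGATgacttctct
Bcl2l1: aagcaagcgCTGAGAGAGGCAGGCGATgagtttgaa
Mcl1: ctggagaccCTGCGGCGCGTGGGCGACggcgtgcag
Bax: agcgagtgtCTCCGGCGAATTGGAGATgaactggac
Bak1: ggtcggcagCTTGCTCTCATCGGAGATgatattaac
Each of these 9 proteins held exactly 1 match to this pattern. The residue before the aspartate is coded as alanine in Bmf (GCA) and Bbc3 (GCG) and as glycine in the other 7. Between members, 5 of the 18 core bases were identical in the least alike pair, Bcl2l1 and Bmf, and 15 of 18 in the most alike, Bbc3 and Bcl2l11. The Bmf stretch lies in exon 4 at chr2:118545100-118545135 on the minus strand, the Bid stretch in exon 4 at chr6:120897289-120897324 on the minus strand, the Bcl2l11 stretch in exon 3 at chr2:128147141-128147176 on the plus strand and the Bbc3 stretch in exon 3 at chr7:16313764-16313799 on the plus strand. The prosurvival stretches lie in exon 1 of Bcl2 at chr1:106712575-106712610, minus strand, in exon 2 of Bcl2l1 at chr2:152829697-152829732, minus strand, and in exon 1 of Mcl1 at chr3:95659427-95659462, plus strand. Those of the effectors lie in exon 3 of Bax at chr7:45465997-45466032 and in exon 4 of Bak1 at chr17:27022531-27022566, both on the minus strand.

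Some libraries stood apart and are named before the results that rest on them. Total counts ran from 15840330 to 25571598 per library. The LG/J male and the LG/J female numbered 1 held Acan, which encodes the cartilage proteoglycan aggrecan, at 67.7 and 48.2 CPM (counts scaled to a common library size, with TMM factors), while the 14 remaining LG/J libraries had 1177 to 3362 CPM, and the inflammatory cytokine gene Il6 at 39.8 and 63.9 CPM against 0 to 0.961 CPM there. Summed chondrocyte markers were at 2656 and 1616 CPM in these libraries, 15159 to 40089 CPM in the other LG/J libraries and 9184 to 29079 CPM in SM/J. In 6 libraries male and female transcripts occurred together (SM/J males 2 and 3, LG/J females 4 and 5, SM/J females 3 and 4), and these are called the 6 mixed-sex libraries. The Y-linked Ddx3y was at 19.6 to 82.6 CPM in the 4 female libraries, against 0.202 to 1.26 CPM in the other 12, and the X-silencing RNA Xist was at 16.3 to 17.7 CPM in the 2 male libraries, against 0.134 to 0.606 CPM in the other 14. Further, 6 pairs of libraries lay closer to each other than the rest, and adding up the counts of each pair left 26 libraries. Each library counted as 1 replicate unless stated. Of 11 macrophage markers, 4 were lower and 0 higher in LG/J by edgeR, and their summed level ran from 33.0 to 1765 CPM in LG/J and 92.9 to 1297 CPM in SM/J, with no marker at 0 in all libraries. Of 10 chondrocyte markers, 3 were higher and 0 lower in LG/J. The part of these markers in the results below was not tested.

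Between the strains, 4 of the 10 members passed the test, in opposite directions. Bmf and Bcl2 were higher in LG/J, while Bid and Pmaip1 were lower. The largest difference was that of Bmf, 3.76-fold higher in LG/J. The other 6 members, among them the most abundant transcripts of the family, Bax and Bcl2l1, did not pass. A gene was called where edgeR's quasi-likelihood test gave a Benjamini-Hochberg adjusted p under 0.05 over all 16136 genes. By that rule 29.9% of all genes were called, 16.4% higher and 13.5% lower in LG/J, so 4 of 10 is near the share in the rest of the transcriptome. The members' median log2 fold change was -0.03, beside 0.02 over all genes. In bulk RNA, fewer cells of a type and less RNA per cell cannot be told apart. Without both LG/J libraries numbered 1 the same 4 members were called, where 32.2% of all genes were. Without the 6 mixed-sex libraries, 2 were called, Bmf and Bid, where 23.8% of all genes were.

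**Figure D1:**
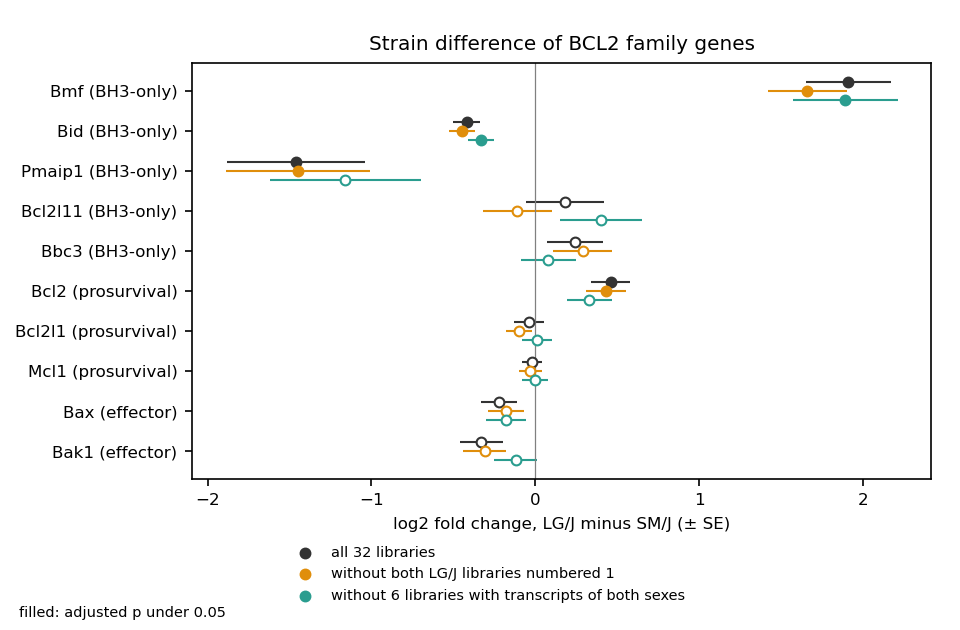
Log2 fold change of each member between LG/J and SM/J over both sexes (x axis, LG/J minus SM/J, ± SE), by gene (y axis), from edgeR with all 32 libraries, without both LG/J libraries numbered 1 and without the 6 mixed-sex libraries, filled where the adjusted p was under 0.05. Bmf at 1.91 lay right of all others, Pmaip1 at -1.46 lay farthest left, and with all 32 libraries Mcl1 and Bcl2l1 lay on 0 within their errors.

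Among the BH3-only genes, Bmf differed most. Bmf, whose protein binds the dynein light chain and is known for its part in the death of cells that lose their anchorage (ENSMUSG00000040093, GRCm38 chromosome 2, 118528757 to 118549687, minus strand), was low in both strains. TMM-scaled CPM had a lowest, median and highest value of 0.865, 3.21 and 8.14 in the 16 LG/J libraries, against 0.313, 0.950 and 2.70 in the 16 SM/J libraries. These levels rest on 21 to 129 reads per library in LG/J, with a median of 70, and on 7 to 51 reads in SM/J, with a median of 18. In 11 of 16 LG/J libraries Bmf was above every SM/J library and in 15 of 16 above the SM/J median. The exception was LG/J female 3, at 0.865 CPM. The mean CPM was 3.58 ± 1.76 for LG/J and 0.943 ± 0.575 for SM/J (SD over 16 libraries per strain, as in all means ± SD that follow), a log2 fold change of 1.91 ± 0.26 (SE, adjusted p = 7.53e-07).

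Both sexes showed the difference in Bmf. Males had 2.50, 3.68 and 8.14 CPM in LG/J (lowest, median, highest), against 0.313, 0.958 and 2.70 CPM in SM/J. Females had 0.865, 2.73 and 6.97 CPM in LG/J, against 0.343, 0.850 and 1.56 CPM in SM/J. In each sex the ranges overlapped through 1 library, SM/J male 1 among males and LG/J female 3 among females. The log2 fold change was 1.98 ± 0.37 in males (adjusted p = 0.000158) and 1.84 ± 0.37 in females (adjusted p = 0.000537). Its difference between the sexes was 0.14 ± 0.52 (adjusted p = 0.987), with a 95% interval of -0.87 to 1.16. The LG/J male and female numbered 1 were the highest of all, at 8.14 and 6.97 CPM, while the 14 others of the strain had 0.865 to 4.02 CPM. Without them LG/J averaged 3.01 ± 0.856 CPM (SD, n = 14) and the log2 fold change was 1.66 ± 0.24 (adjusted p = 1.67e-06).

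Bid went the other way. Its protein is cut by caspase-8 and carries the signal of death receptors to mitochondria (ENSMUSG00000004446, chromosome 6, 120891930 to 120916853, minus strand). CPM ran from 16.0 over a median of 24.3 to 32.4 in LG/J and from 25.8 over 31.6 to 43.1 in SM/J. The strains overlapped, yet 10 LG/J libraries lay below every SM/J library and 7 SM/J libraries above every LG/J library. Bid fell to 24.3 ± 4.12 CPM in LG/J, against 32.4 ± 4.87 CPM in SM/J, a log2 fold change of -0.42 ± 0.08 (adjusted p = 0.000215). It was called in males, at -0.37 ± 0.12 (adjusted p = 0.0228), and in females, at -0.47 ± 0.12 (adjusted p = 0.0054). Of the SM/J females, numbers 3 and 4, which held Ddx3y, had 40.2 to 43.1 CPM, against 25.8 to 37.5 CPM in the other 6. Without the 6 mixed-sex libraries the difference over both sexes was -0.33 (adjusted p = 0.00442), and that in females was -0.28 and no longer called (adjusted p = 0.159). The end of Bid overlaps Bcl2l13 on the opposite strand, and the strand setting of the counting is not given in the sources used here, so shared reads could not be assigned. Bcl2l13 averaged 21.8 CPM, with a log2 fold change of 0.07 ± 0.08 that did not pass (adjusted p = 0.603).

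Pmaip1, whose protein NOXA binds MCL1 and is induced by p53 and by stress (ENSMUSG00000024521, chromosome 18, 66458604 to 66465550, plus strand), was lower in LG/J on few reads. The lowest, median and highest values were 0, 0.613 and 3.11 CPM in LG/J, from 0 to 76 reads, against 0.736, 2.13 and 4.67 CPM in SM/J, from 14 to 122 reads. Of the LG/J libraries, 2 had no read, which for counting error alone allows up to 3 reads each. In 9 LG/J libraries Pmaip1 was below every SM/J library, while LG/J male 6, at 3.11 CPM, was above all but 4 SM/J libraries. The mean CPM was 0.819 ± 0.810 for LG/J and 2.31 ± 1.15 for SM/J, and the log2 fold change was -1.46 ± 0.42 (adjusted p = 0.00775). Neither sex alone passed, with -1.24 ± 0.59 in males (adjusted p = 0.136) and -1.68 ± 0.59 in females (adjusted p = 0.0554). Without LG/J male 6, males were called, at -2.09 (adjusted p = 0.00793). Without the 6 mixed-sex libraries the difference over both sexes was -1.16 and no longer called (adjusted p = 0.0727), and SM/J females 3 and 4 were the highest of their group, at 4.33 to 4.67 CPM against 1.50 to 3.15 CPM.

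The remaining BH3-only members did not pass. Bcl2l11, which encodes BIM, a trigger of death after loss of growth factors (ENSMUSG00000027381, chromosome 2, 128126038 to 128162547, plus strand), had 0.667, 2.46 and 7.64 CPM in LG/J (lowest, median, highest), against 0.999, 2.43 and 4.33 CPM in SM/J. The highest values were those of LG/J female 1, at 7.64 CPM from 124 reads, and LG/J male 1, from 95 reads, both above the 0.667 to 4.70 CPM of the other 14 LG/J libraries. The log2 fold change was 0.18 ± 0.24 (adjusted p = 0.614, 95% interval -0.29 to 0.65), and it was -0.11 without these libraries. Bbc3, which encodes PUMA, a main p53 target (ENSMUSG00000002083, chromosome 7, 16309616 to 16318205, plus strand), had 0.783, 1.52 and 2.51 CPM in LG/J, against 0.382, 1.24 and 1.89 CPM in SM/J. The strains overlapped almost fully, and the log2 fold change was 0.24 ± 0.17 (adjusted p = 0.316, 95% interval -0.10 to 0.58).

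**Figure D2:**
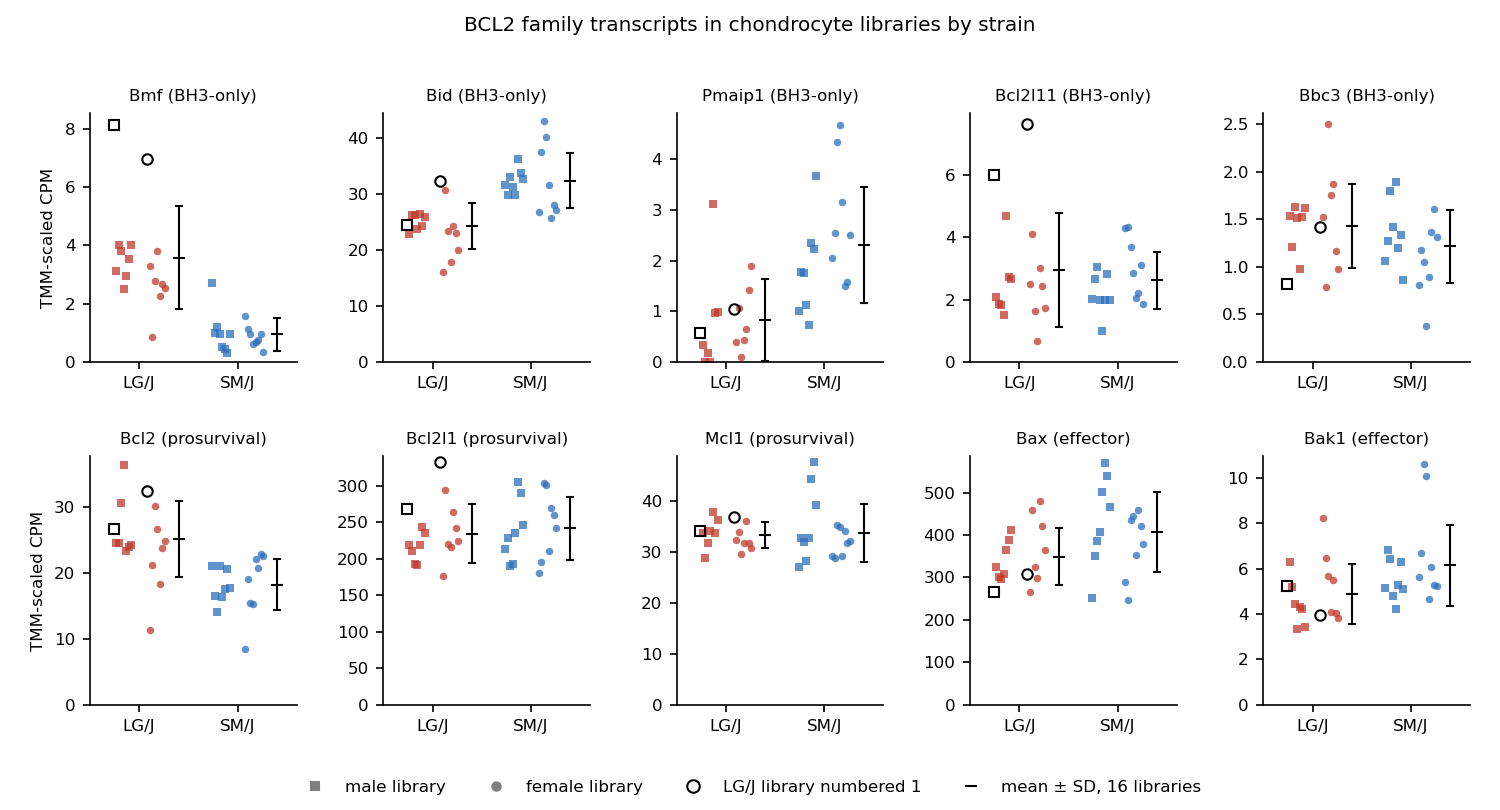
TMM-scaled CPM (y axes, linear from 0) of the 10 members in each of 16 LG/J and 16 SM/J libraries (x axes), squares for males and circles for females, open for the LG/J libraries numbered 1, with mean ± SD. Bmf and Bcl2 points sit higher in LG/J and Bid and Pmaip1 points lower, with some overlap in each, while Bcl2l1 and Mcl1 points cover like ranges.

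Of the prosurvival genes, Bcl2 was called. Bcl2, the founding member, whose protein sits on the outer membrane of mitochondria (ENSMUSG00000057329, chromosome 1, 106538178 to 106714274, minus strand), had 11.3, 24.6 and 36.3 CPM in LG/J (lowest, median, highest), against 8.38, 18.4 and 22.8 CPM in SM/J. In 13 of 16 LG/J libraries it was above every SM/J library, and LG/J female 2, at 11.3 CPM, was the lowest of its strain. Bcl2 rose to 25.2 ± 5.76 CPM in LG/J, against 18.2 ± 3.84 CPM in SM/J, a log2 fold change of 0.46 ± 0.12 (adjusted p = 0.00379). It was called in males, at 0.57 ± 0.17 (adjusted p = 0.0165), but not in females, at 0.36 ± 0.17 (adjusted p = 0.182), and the difference between the sexes was 0.20 ± 0.24 (adjusted p = 0.939). Leaving out both LG/J libraries numbered 1 gave 0.43 (adjusted p = 0.0082). Without the 6 mixed-sex libraries it was 0.33 and no longer called (adjusted p = 0.0836). An antisense transcript, D630008O14Rik, overlaps Bcl2 and averaged 0.334 CPM, against 21.7 CPM for Bcl2 itself.

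Bcl2l1 and Mcl1 were near equal in the strains. Bcl2l1, whose product BCL-XL is known to keep maturing chondrocytes alive in the growth plate of mice (ENSMUSG00000007659, chromosome 2, 152780668 to 152831728, minus strand), had 177, 222 and 333 CPM in LG/J, against 180.3, 239 and 305 CPM in SM/J (lowest, median, highest). The log2 fold change was -0.04 ± 0.09 (adjusted p = 0.746, 95% interval -0.22 to 0.13). Mcl1, which encodes a prosurvival protein of rapid turnover (ENSMUSG00000038612, chromosome 3, 95658721 to 95663176, plus strand), had 28.7, 33.6 and 37.7 CPM in LG/J, against 27.1, 32.5 and 47.7 CPM in SM/J. Its log2 fold change was -0.02 ± 0.06 (adjusted p = 0.887), and the 95% interval of -0.14 to 0.11 was the narrowest of the 10 members. For both genes the sign turned under alternatives in which neither was called.

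The effectors did not pass by edgeR with TMM scaling and all libraries, and their calls changed with the processing. Bax (ENSMUSG00000003873, chromosome 7, 45461695 to 45466898, minus strand), whose protein moves from the cytosol to mitochondria to open the membrane, had 265, 325 and 480.2 CPM in LG/J, against 248, 415 and 569.7 CPM in SM/J (lowest, median, highest). In 13 of 16 LG/J libraries it was below the SM/J median, the ranges overlapped, and the log2 fold change was -0.22 ± 0.11 (adjusted p = 0.125, 95% interval -0.43 to -0.01). In males it was -0.38 ± 0.15 (adjusted p = 0.0657) and in females -0.05 ± 0.15 (adjusted p = 0.88). Bax passed over both sexes without SM/J male 1, at -0.26 (adjusted p = 0.0411), and with the library number as a block, at -0.20 (adjusted p = 0.0309). Bak1, whose protein BAK resides on mitochondria (ENSMUSG00000057789, chromosome 17, 27019810 to 27029009, minus strand), had 3.34, 4.38 and 8.23 CPM in LG/J, against 4.21, 5.47 and 10.6 CPM in SM/J. Of the LG/J libraries, 6 lay below every SM/J library, and the log2 fold change of -0.33 ± 0.13 lay just outside the threshold (adjusted p = 0.0565). With all libraries it passed under 6 alternatives, which were DESeq2's size factors, upper-quartile factors, a filter at 1 CPM, DESeq2, voom and the block, at adjusted p from 0.00746 with the block to 0.049 with DESeq2's size factors. It also passed when any 1 of 7 libraries was left out (LG/J male 2, SM/J male 5, LG/J females 2 and 3, SM/J females 5, 7 and 8), at -0.39 to -0.35. SM/J females 3 and 4 held the highest values, 10.1 to 10.6 CPM against 4.68 to 6.69 CPM in the other SM/J females, and without the 6 mixed-sex libraries the log2 fold change was -0.12 and not called. Ggnbp1 lies across the whole of Bak1 on the opposite strand, at 5.18 CPM beside 5.52 CPM for Bak1 over all libraries, and with the strand setting not given, reads of the pair cannot be assigned. Ggnbp1 itself had a log2 fold change of -0.14 ± 0.11 (adjusted p = 0.371).

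In no member did the strains separate fully, which 2.62% of all genes did. Read per sex, 3 members were called in males (Bmf and Bcl2 higher, Bid lower), where 22.3% of all genes were, 12.8% higher and 9.48% lower. In females 2 were called (Bmf higher, Bid lower), where 13.4% were, 6.87% higher and 6.49% lower. No member was called for male minus female over both strains by edgeR, where 3.46% of all genes were, and 0 had an unadjusted p under 0.05. DESeq2 and limma voom with quality weights called 0 as well, where 6.38% and 10.9% of all genes were. The male minus female log2 fold changes ran from -0.39 in Pmaip1 to 0.28 in Bmf. For the difference of the strain contrasts between males and females, edgeR, DESeq2 and voom called 0 members, with 0 unadjusted p under 0.05 in edgeR. Of all genes, edgeR called 0.0062%, DESeq2 0.341% and voom 1.6%. Directions between the sexes rest on labels that 6 libraries did not match fully.

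Scaled by gene length, the family spanned 3 orders of level. RPKM, the CPM divided by gene length in kilobases, averaged 437 for Bax and 51.9 for Bcl2l1 over the 32 libraries, followed by Mcl1 at 9.61, Bid at 7.97, Bcl2 at 2.37, Bak1 at 2.29, Bbc3 at 0.660, Pmaip1 at 0.597, Bmf at 0.419 and Bcl2l11 at 0.340. The ranges of neighbours did not overlap between Bax and Bcl2l1, Bcl2l1 and Mcl1, Bid and Bcl2, or Bak1 and Bbc3. Other neighbours overlapped. Mcl1 was above Bid in 16 of 16 LG/J libraries and 9 of 16 SM/J libraries. Bcl2 was above Bak1 in 13 LG/J and 6 SM/J libraries. Bmf was above Bcl2l11 in 14 LG/J libraries and 1 SM/J library, and Pmaip1 above Bmf in 4 LG/J and 15 SM/J libraries. Of the summed RPKM of Bax and Bak1, Bax held 99.5 ± 0.198% in LG/J and 99.4 ± 0.201% in SM/J. Of that of Bcl2, Bcl2l1 and Mcl1, Bcl2l1 held 80.4 ± 2.35% in LG/J and 81.8 ± 1.62% in SM/J. These shares leave out family genes that are not among the members, such as Bok and Bcl2l2. The Bax values may hold reads of Gm45808, an annotated gene on the same strand that shares part of its exons and was not analysed here. The Bak1 values may hold reads of Ggnbp1, as given above.

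**Figure D3:**
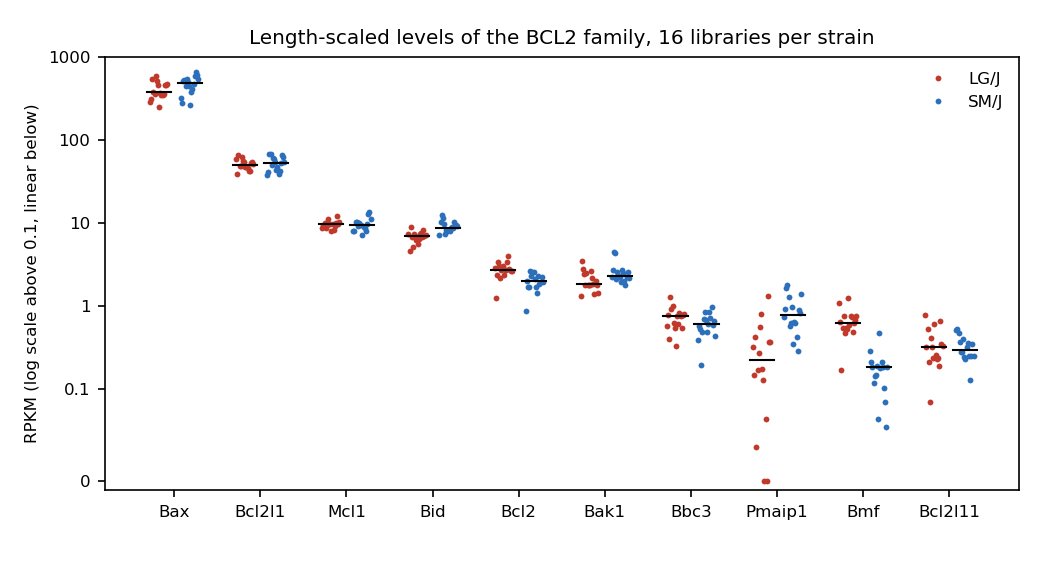
Deposited RPKM of each member (y axis, logarithmic above 0.1 and linear below) in 16 LG/J and 16 SM/J libraries, with the median as a bar and genes ordered along the x axis by their mean over all libraries. Bax averaged 437 RPKM and Bcl2l11 0.340 RPKM, and the LG/J median lies above the SM/J median for Bmf and below it for Pmaip1, with points of the strains overlapping.

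The make-up of the BH3-only members' transcripts differed with the strain, as a description that restates the single genes. Shares and sums here cover the 10 members only, so Bad, a BH3-only gene given below at a higher CPM than Bid, is left out. Bid held most of the members' summed BH3-only RPKM, 76.7 ± 4.32% in LG/J and 82.1 ± 1.91% in SM/J. Bmf held 7.65 ± 3.14% in LG/J and 1.65 ± 1.07% in SM/J. Pmaip1 held a median of 2.59% in LG/J and 7.38% in SM/J. In LG/J libraries the lowest, median and highest share of Bmf was 1.63, 7.38 and 15.8%, against 0.521, 1.59 and 4.85% in SM/J. Without both LG/J libraries numbered 1 the highest share in LG/J was 10.6%. The BH3-only sum was 8.89 ± 1.22 RPKM in LG/J and 11.1 ± 1.71 RPKM in SM/J, the prosurvival sum 63.4 ± 7.69 and 64.3 ± 11.8 RPKM in LG/J and SM/J, and the effector sum 409 ± 97.2 RPKM in LG/J and 470.4 ± 115 RPKM in SM/J. The ratio of Bax to Bcl2 RPKM was 157 ± 56.0 in LG/J and 246 ± 73.5 in SM/J. That of Bax to Bcl2l1 was 7.94 ± 1.29 in LG/J and 8.89 ± 1.51 in SM/J. Without both LG/J libraries numbered 1, LG/J had 164 ± 55.7 for Bax to Bcl2 and 8.36 ± 0.664 for Bax to Bcl2l1 (SD, n = 14).

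**Figure D4:**
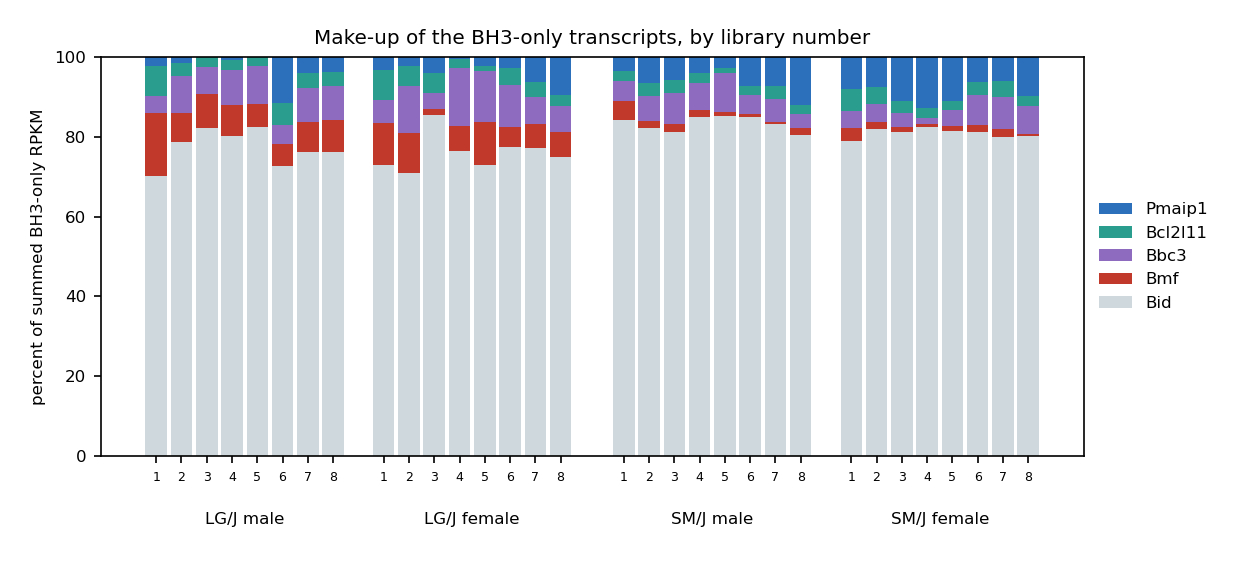
Share of each BH3-only member in the members' summed BH3-only RPKM (y axis, percent) in every library (x axis, library number within LG/J males, LG/J females, SM/J males and SM/J females). Bmf takes 1.63 to 15.8% in LG/J (at most 10.6% without the libraries numbered 1) and 0.521 to 4.85% in SM/J. Bid is the largest share among these members in every library.

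How the members varied among libraries of a group was described by Pearson correlations of log2 CPM after each group mean was subtracted, over the 30 libraries without the LG/J libraries numbered 1. These libraries share scaling and culture, and some lie close together. The 3 abundant members moved together, with r of 0.81 for Bax and Bcl2l1, 0.72 for Bax and Mcl1 and 0.71 for Bcl2l1 and Mcl1. Bmf ran against them, with -0.69 for Bax, -0.62 for Mcl1 and -0.58 for Bcl2l1. For pairs of members no Spearman's rho was computed, and r was not set against that of other gene pairs. The weight of single libraries in them, such as SM/J male 1 and LG/J female 3, was not tested. Among 8358 genes whose mean log2 CPM reached 3, the 5 with the highest r with Bmf were Gpbp1l1 (r 0.78, Spearman's rho 0.75), Brat1 (0.78 and 0.52), Zfp397 (0.77 and 0.69), Upf1, a factor of RNA decay (0.76 and 0.68), and Golga5, a Golgi protein gene (0.76 and 0.52).

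The start-site windows of Bmf and Bid, which are called BH3-only members, are shown because these genes differed in opposite directions. That of Pmaip1, which was also called, was not used here. RefSeq on GRCm38.p6 lists 3 start sites for Bmf, of which the outermost is printed, and 1 for Bid. Each window runs from 250 bases before the start to 50 after, in the genome of C57BL/6J, at chr2:118549637-118549936 for Bmf and chr6:120916775-120917074 for Bid, both on the minus strand. Capitals mark the GC box letters GGGCGG, searched on both strands.
Bmf: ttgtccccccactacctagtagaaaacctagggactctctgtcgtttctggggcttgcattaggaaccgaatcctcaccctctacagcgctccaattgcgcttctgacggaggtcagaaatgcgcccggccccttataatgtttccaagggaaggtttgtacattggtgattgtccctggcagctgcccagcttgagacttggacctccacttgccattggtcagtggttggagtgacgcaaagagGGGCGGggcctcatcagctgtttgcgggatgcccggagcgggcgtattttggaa
Bid: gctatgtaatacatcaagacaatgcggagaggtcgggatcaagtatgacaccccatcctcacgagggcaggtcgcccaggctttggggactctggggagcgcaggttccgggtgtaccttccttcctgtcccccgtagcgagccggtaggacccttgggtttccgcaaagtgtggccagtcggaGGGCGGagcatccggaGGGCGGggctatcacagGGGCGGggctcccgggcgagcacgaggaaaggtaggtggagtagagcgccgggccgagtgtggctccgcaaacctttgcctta
The Bmf window held 1 GC box and the Bid window 3, letters found in 35.7% of 32851 promoter windows of the same length. The windows of the other Bmf starts held none. The letters GTAAACA, a form of the FOXO site, were in 3.65% of all windows, in none of the 3 Bmf windows and not in that of Bid. They did occur in 1 window of Bcl2l11 and 1 of Bbc3. Such a match describes letters and not binding, and no match says only that these letters are not in this window.

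Around the family, 6 lists of apoptosis genes were read from the same fit, beside the 29.9% of all genes called. Of 15 other BCL2 family genes, 10 were kept, 1 was higher and 2 lower in LG/J (median log2 fold change -0.11). Bnip3, which encodes a BH3-like protein of mitophagy induced by low oxygen, rose to 233 ± 86.5 CPM in LG/J, against 137 ± 40.8 CPM in SM/J, a log2 fold change of 0.76 ± 0.18 (adjusted p = 0.00134). Bad, a BH3-only gene whose protein is silenced by phosphorylation, fell to 87.7 ± 7.95 CPM in LG/J, against 97.9 ± 10.1 CPM in SM/J (-0.16 ± 0.05, adjusted p = 0.0194). Its call was lost without the 6 mixed-sex libraries (adjusted p = 0.125). Bcl2l15 fell by 0.94 on the log2 scale (adjusted p = 0.0394), on 1 to 11 reads in LG/J and 2 to 17 reads in SM/J, and lost its call when any 1 of 18 libraries was left out. Bcl2a1a, Bcl2a1b, Bcl2a1d, Bcl2l10 and Bik were not kept by the filter.

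The machinery downstream of the mitochondrion had 1 gene higher and 3 lower in LG/J of 20 (median 0.01). Htra2, a protease released from mitochondria, fell to 37.0 ± 6.56 CPM in LG/J, against 47.7 ± 7.05 CPM in SM/J, at -0.36 ± 0.08 (adjusted p = 0.000973). Diablo, which encodes an antagonist of inhibitors of apoptosis, averaged 77.3 ± 11.4 CPM in LG/J libraries and 89.8 ± 13.2 CPM in SM/J libraries (-0.21 ± 0.07, adjusted p = 0.022). Xiap, the caspase inhibitor it counters, averaged 17.2 ± 2.69 CPM in LG/J libraries and 14.7 ± 1.93 CPM in SM/J libraries (0.22 ± 0.08, adjusted p = 0.0255), and its call was lost without LG/J female 2 (adjusted p = 0.0538) or when both LG/J libraries numbered 1 were left out (adjusted p = 0.0617). The initiator caspase gene Casp9 did not pass, at 0.06 ± 0.07 (adjusted p = 0.558).

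Of the death receptor pathway, the route that feeds into Bid, 9 of 11 genes were kept, 0 were higher and 5 lower in LG/J (median -0.22), where 13.5% of all genes were lower. Fas, the receptor of Fas ligand, was lower in LG/J, with a median of 54.5 and a highest value of 70.7 CPM in LG/J, against a median of 67.8 and a highest value of 95.4 CPM in SM/J, at -0.35 ± 0.09 (adjusted p = 0.00441). The adaptor gene Fadd fell to 11.7 ± 1.34 CPM in LG/J, against 13.6 ± 1.43 CPM in SM/J (-0.22 ± 0.06, adjusted p = 0.00634). Tnfrsf1a, a receptor of tumor necrosis factor, fell to 153 ± 34.6 CPM in LG/J, against 196 ± 36.4 CPM in SM/J (-0.35 ± 0.10, adjusted p = 0.00823). The other genes called lower were Casp8 and Tnfrsf10b, both at -0.30. The number lower was 3 with library size as the only scaling, and 2 without the 6 mixed-sex libraries and 2 when the close pairs were added up. The macrophage markers given above, 4 of 11 of them lower in LG/J, moved the same way, and their part was not tested.

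Regulators of the members showed few and mixed differences. Of 10 genes for p53 and its targets outside the family, 1 was higher and 1 lower in LG/J (median 0.06). Zmat3 averaged 22.8 ± 7.96 CPM in LG/J libraries and 16.7 ± 4.62 CPM in SM/J libraries, at 0.45 ± 0.13 (adjusted p = 0.0105), and Aen, a nuclease gene, was lower (-0.31 ± 0.10, adjusted p = 0.0222), a call lost without the 6 mixed-sex libraries (adjusted p = 0.191). Trp53 itself was at -0.06 ± 0.07 (adjusted p = 0.56). Of 7 transcription factors known to switch on BH3-only genes, Foxo4 was higher (0.52 ± 0.14, adjusted p = 0.00593) and E2f1 lower (-0.38 ± 0.13, adjusted p = 0.0267), and the list's median of 0.36 was 0.01 without the 6 mixed-sex libraries, where E2f1 lost its call (adjusted p = 0.193).

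Genes acting on the members' proteins made up the last list, with 3 of 10 higher and 1 lower in LG/J (median 0.11). Gsk3b, a kinase that marks MCL1 for degradation, rose to 452 ± 68.1 CPM in LG/J, against 317 ± 65.6 CPM in SM/J, at 0.53 ± 0.08 (adjusted p = 1.63e-06). Usp9x, whose protein removes ubiquitin from MCL1, averaged 31.1 ± 4.74 CPM in LG/J libraries and 24.2 ± 6.47 CPM in SM/J libraries (0.39 ± 0.09, adjusted p = 0.00103). Huwe1, a ubiquitin ligase of MCL1, averaged 78.0 ± 14.9 CPM in LG/J libraries and 62.4 ± 11.0 CPM in SM/J libraries (0.33 ± 0.09, adjusted p = 0.00352). Pim1, a kinase that phosphorylates BAD, was lower (-0.81 ± 0.22, adjusted p = 0.00616). Without the 6 mixed-sex libraries 5 genes of this list were higher and 0 lower.

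**Figure D5:**
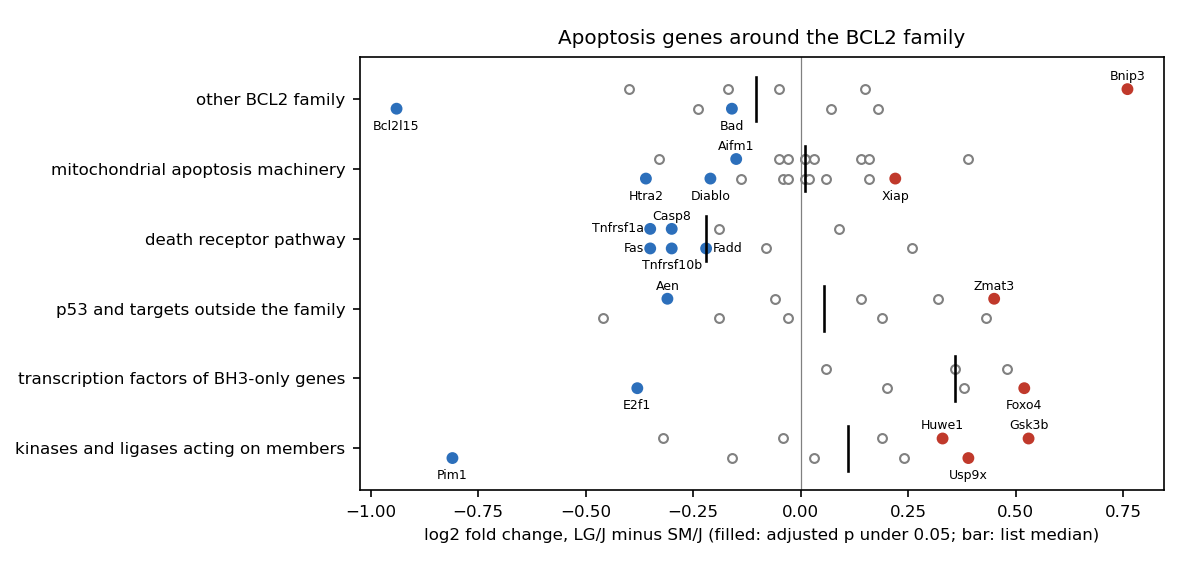
Log2 fold change between LG/J and SM/J over both sexes (x axis, LG/J minus SM/J) of the genes kept in 6 lists around the BCL2 family (y axis), filled and named where edgeR's adjusted p was under 0.05, with a bar at each list's median. Of the 9 death receptor genes kept, 5 are filled left of 0, with a list median of -0.22, and Bnip3 at 0.76 lies farthest right.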

How the data were processed

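Per the labels' protocols, a SMARTer kit had been used on total RNA of unpassaged chondrocytes, and strain, sex and a number from 1 to 8 were read from the sample titles. Per the submitters' processing notes, reads were aligned to GRCm38 with STAR 2.0.4b and assigned to genes with featureCounts 1.45 of Subread. For the annotation release and the strand setting, nothing is given in the sources used here. Whole-number read counts per gene were deposited beside CPM and RPKM. The deposited CPM equalled the count over the library total (largest difference 1.2e-10), and the deposited RPKM divided this by the gene length. No column belonged to another study. Symbols were found for 40254 of 41388 IDs.

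All tests used the counts. After filterByExpr, 16136 genes were left. In edgeR 4.0.16 (R 4.3.3), TMM factors were computed and a quasi-likelihood model with robust dispersions was fitted to all 32 libraries, with 1 mean per group. LG/J was contrasted with SM/J over both sexes and in each, males with females, and the strain contrast of males with that of females. Adjustment (Benjamini-Hochberg) covered all 16136, with calls at adjusted p under 0.05. SE is the log2 fold change over the square root of F, and the 95% interval is 1.96 SE each way. Levels are CPM rescaled by TMM, and RPKM as deposited. The number of reads limits the precision of low genes such as Bmf, Pmaip1 and Bcl2l15, and the spread between libraries adds to it.

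Named were all 10 members, from each apoptosis list up to 3 called genes of lowest p, and the 5 genes most correlated with the member of smallest p. Bcl2l13, Ggnbp1, Casp8, Casp9, Tnfrsf10b, Trp53 and Pim1 were named after their values were seen. The members, the lists and the libraries left out were chosen with earlier results of these data known. Fits were tested on simulated counts. Alternatives were DESeq2's size factors, upper-quartile factors, library size alone, no filter, a filter at 1 CPM in 8 libraries, the tests of DESeq2 1.42.0 and of limma 3.58.1 (voom with quality weights, prior count of 2), the library number as a block, and leaving out or summing libraries. Summing the close pairs and leaving out the LG/J libraries numbered 1 together was added after seeing the data.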

Additional observations from a re-analysis of the deposited data

Results flagged for a closer look

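A library was looked at again where its gap to the nearest of the other 7 libraries of its group was a larger part of the group's whole range than Dixon's 95% critical value allows. Over 40 combinations of a member and a group, 3 met this, and chance alone does so in about 1 in 20. Bmf reached 8.14 CPM in LG/J male 1, while the remaining LG/J males had 2.50 to 4.02 CPM. This is 1 of the LG/J libraries numbered 1, which also held Acan at 67.7 CPM and Nos2, an inflammatory enzyme gene, at 739.8 CPM, against 0.294 to 7.27 CPM of Nos2 in the 14 other LG/J libraries. Bmf reached 2.70 CPM in SM/J male 1, while the remaining SM/J males had 0.313 to 1.20 CPM. Pmaip1 reached 3.11 CPM in LG/J male 6, while the remaining LG/J males had 0 to 0.981 CPM.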

How the results depend on the processing

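Over both sexes, 4 members were called, and 2 without the 6 mixed-sex libraries, where 29.9% and 23.8% of all genes were. Bmf and Bid were called under all 12 alternatives and in all 32 fits that left out 1 library, with Bmf at 1.57 to 1.94 under the alternatives. Bcl2 lost its call in 2 alternatives and Pmaip1 in 1, with adjusted p from 0.00168 to 0.0906 for Bcl2 and 0.000161 to 0.0727 for Pmaip1, whose log2 fold change ran from -2.27 with voom to -1.16 without the mixed-sex libraries, and in males from -2.88 with voom to -0.77 with the close pairs summed and the LG/J libraries numbered 1 left out. Bcl2 was at 0.34 (adjusted p = 0.0906) with the close pairs summed and without both LG/J libraries numbered 1. Bak1 was called in 6 alternatives, with an adjusted p of 0.00746 at the lowest. In males the 3 calls became 5 with voom, Pmaip1 among them, 1 with the close pairs summed, and 1 when the LG/J libraries numbered 1 were also left out. In females the 2 calls became 1 without the mixed-sex libraries and 1 with the close pairs summed. There 9.92% and 9.35% of all genes were called in females, against 13.4% in the main fit. Signs turned, with no call either way, for Bcl2l1 (0.01 without the mixed-sex libraries, 0.04 with the close pairs summed), Mcl1 (0.05 with the close pairs summed, 0.04 also without the LG/J libraries numbered 1) and Bcl2l11 (-0.13 with voom, -0.11 without the LG/J libraries numbered 1). Of the genes named from the lists, Bad and Xiap lost their calls in 5 of 12 alternatives each, Bcl2l15 in 5 of the 11 that tested it and Aen in 3. Diablo, Fadd, Tnfrsf1a and E2f1 lost theirs in 2 alternatives each. The cause was not tested.

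Leaving out 1 library at a time gave 4493 to 5151 genes and 4 to 5 members over both sexes, 3 to 4 members in males, 2 to 3 in females, and 0 to 0 for sex and for the difference between sexes. Of all genes, these fits called 18.4 to 24.9% in males and 11.6 to 14.6% in females. They called 1.92 to 5.9% for sex and at most 0.141% for the difference between sexes. Log2 fold changes ran from 1.78 to 2.10 for Bmf, -0.46 to -0.39 for Bid, 0.41 to 0.51 for Bcl2 and -1.89 to -1.35 for Pmaip1, and from -0.04 to 0.02 for Mcl1, above 0 without SM/J male 6 or 7. Pmaip1 passed in females when any 1 of 6 libraries was left out. The labels give all groups the numbers 1 to 8 but no shared animal, so the numbers were not taken to pair libraries in the main fit. Of 48 same-numbered pairs, 30 had a correlation of deviations over 0.1, from -0.45 to 0.84. Pairs of unlike number were not compared with them, so whether a number carries a shared effect was not tested. With the replicate block, 6 members were called over both sexes, 4 in males and 3 in females, where 32.8%, 25.7% and 14.9% of all genes were. Among those called over both sexes were Bax (-0.20, adjusted p = 0.0309) and Bak1 (-0.33, adjusted p = 0.00746).

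Low counts limit Bmf, Pmaip1, Bcl2l11 and Bbc3, transcripts of both sexes the comparisons of males with females, and the overlaps with Bcl2l13 and Ggnbp1 the values of Bid and Bak1.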
